A study of Mus musculus with 12 samples.

Results

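Transcripts of 10 mouse cytokine genes were followed across 4 genotype labels of pancreatic tumour cells. The genes were Csf1, Il34, Csf2 and Csf3 among the colony-stimulating factors and factors that share their receptors, Il6, Il11 and Lif of the interleukin-6 family, and Il1a, Il1b and Il33 of the interleukin-1 family. They were taken by symbol from a table of 24493 genes, and all 10 were found there. Values are TPM, a share of a library's transcripts after allowance for transcript length, so that levels of different genes can be set side by side but are not absolute amounts.

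Colony-stimulating factors act on myeloid cells and their precursors. CSF-1 and interleukin-34 are separate ligands of the receptor encoded by Csf1r, which macrophages need for survival, GM-CSF (Csf2) acts through the alpha chain Csf2ra and the common beta chain Csf2rb on granulocytes, macrophages and dendritic cells, and G-CSF (Csf3) drives neutrophil production through Csf3r. Interleukin-6 family cytokines share the signalling chain gp130 (Il6st), which activates JAK kinases and the transcription factor STAT3. Interleukin-1 alpha, interleukin-1 beta and interleukin-33 signal through the adaptor MyD88, and inflammasome caspases cleave interleukin-1 beta into its active form. In pancreatic cancer GM-CSF, interleukin-6, LIF and interleukin-1 beta have each been studied as signals between tumour cells, fibroblasts and myeloid cells.

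The cells, named 6649c2, had been implanted under the skin of mice and sorted from the resulting tumours, and the strain given is C57BL/6. EgfrKO, Klf5KO and Smad4KO libraries are labelled as knockouts of a receptor for epidermal growth factor, of a Krüppel-like transcription factor of epithelia, or of the Smad protein that TGF-beta and BMP receptors share, and WT libraries carry no knockout label. Each label has 3 libraries, 12 in all. Whether a knockout line is 1 clone or a pool, which gate was used for sorting, and whether the 3 libraries of a label came from separate animals are points that the labels leave unstated. The p-values therefore describe the spread between libraries, which may be technical. Clone differences and effects of the targeted gene cannot be told apart.

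The targeted genes were checked first. Egfr averaged 4.29 ± 0.76 TPM in EgfrKO, 6.93 ± 1.45 TPM in Klf5KO, 7.95 ± 1.88 TPM in Smad4KO and 13.1 ± 0.85 TPM in WT libraries (SD, n = 3 each), and it was called lower than in WT for all 3 labels. Smad4 averaged 64.0 ± 2.39 TPM in EgfrKO, 95.8 ± 5.48 TPM in Klf5KO, 30.7 ± 2.39 TPM in Smad4KO and 75.5 ± 4.45 TPM in WT libraries. Klf5 averaged 84.9 ± 3.55 TPM in EgfrKO, 93.8 ± 6.35 TPM in Klf5KO, 125 ± 10.3 TPM in Smad4KO and 112 ± 16.8 TPM in WT libraries. Its mean was thus lower in EgfrKO than in Klf5KO. Klf5KO and WT values overlapped, with a log2 fold change of -0.25 in Klf5KO (SE 0.10, limma adjusted p = 0.0411). Klf5 transcripts were thus not lost, a gene-level value does not show whether they still encode a working protein, and the group is called by its label throughout. Summed over 12 epithelial and ductal genes, the libraries held 7618 to 8136 TPM in EgfrKO, 4788 to 5344 TPM in Klf5KO, 8345 to 9335 TPM in Smad4KO and 5704 to 6177 TPM in WT, led by the keratins Krt8 and Krt18. Genes of other cell types were measured too, with the macrophage gene Lyz2 at 433 ± 17.7 TPM in EgfrKO, 675 ± 171 TPM in Klf5KO, 206 ± 119 TPM in Smad4KO and 438 ± 216 TPM in WT. C1qa, another macrophage gene, averaged 265 ± 13.8 TPM in EgfrKO, 239 ± 62.3 TPM in Klf5KO, 114 ± 72.9 TPM in Smad4KO and 172 ± 60.2 TPM in WT. Lyz2 was called lower in Smad4KO alone, and C1qa was called for no label. In such bulk samples, fewer cells of a type and less RNA per cell cannot be told apart.

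Between the knockout-labelled and the WT libraries the clearest difference among the 10 cytokines was in Csf2, whose mean lay between 2.77 and 6.33 TPM in the 3 knockout-labelled groups and was 44.5 TPM in WT. Lif and Il1a were also lower in all 3, while Csf1 was higher in Klf5KO and Il11 was lower in Smad4KO. The mean was highest in WT for 7 of the 10 genes and highest in Klf5KO for the other 3 (Csf1, Il11 and Il1b). It was lowest in Smad4KO for 6 genes, in Klf5KO for 3 and in WT for Csf1 alone. Summed over the 10 genes, levels were 119, 111 and 111 TPM in EgfrKO, 115, 112 and 137 TPM in Klf5KO, 115, 115 and 108 TPM in Smad4KO, and 173, 216 and 209 TPM in WT. Il33 was the most abundant member and made up 24.6% to 57.4% of that sum in single libraries.

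**Figure D1:**
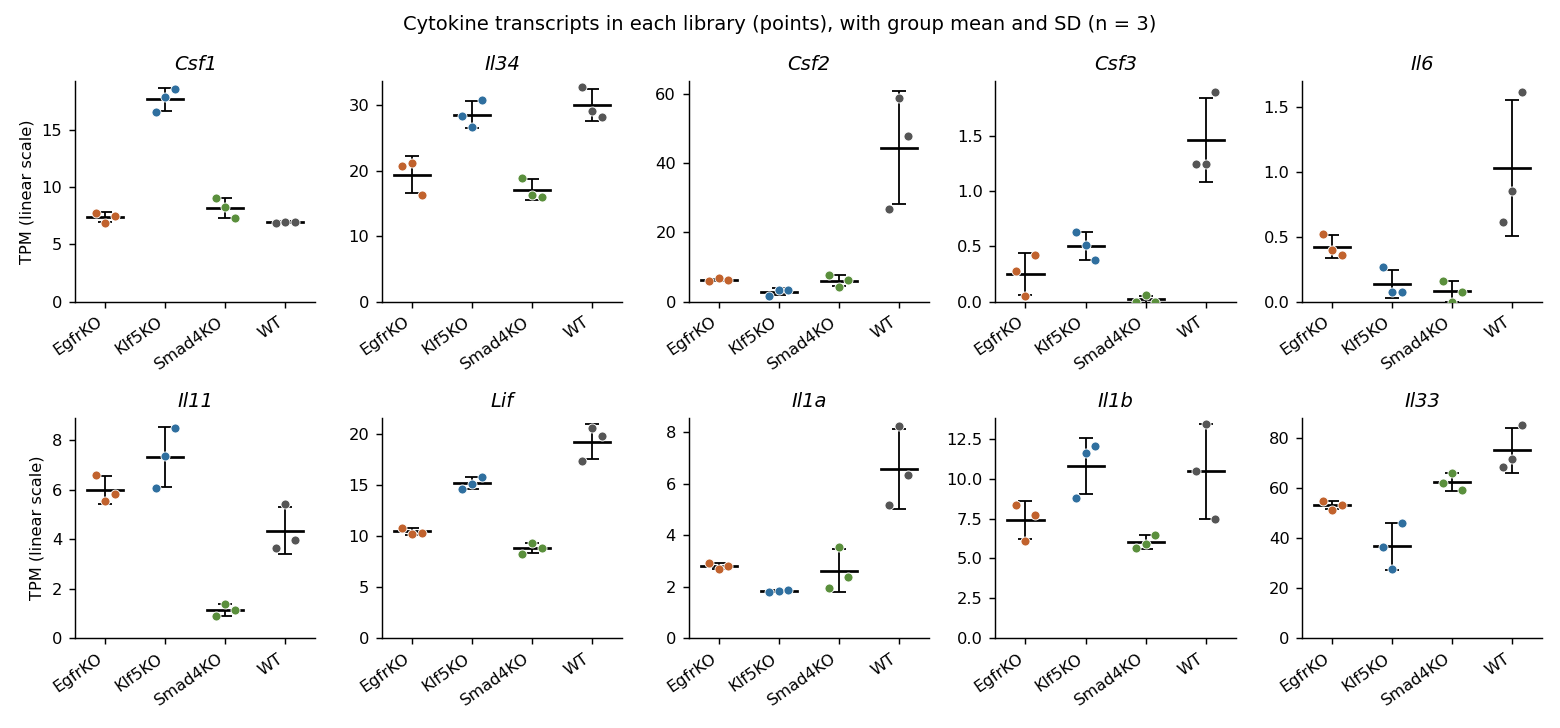
TPM of the 10 cytokine genes on linear axes, with 1 panel per gene, 1 point per library, and the mean and SD of each genotype label (n = 3). Csf2 lies at or below 7.67 TPM in every knockout-labelled library and between 26.8 and 58.9 TPM in WT, Csf1 stands high in Klf5KO, and Il11 stands low in Smad4KO.

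Differences were tested with limma on log2(TPM + 1), a scale that understates changes of weakly expressed genes, in 1 fit over 13662 genes. A change is called at a Benjamini-Hochberg adjusted p under 0.05 over all of them. Of the 10 members, 9 passed the filter of at least 1 TPM in at least 3 libraries. Csf3 did so only through the WT libraries, so its difference from WT follows in part from the filter. It is left out of the counts against WT, a choice made after seeing the data, and Il6 did not pass. The 3 comparisons with WT share the same WT libraries. Of the other 8 genes, none rose and 5 fell in EgfrKO, where 43.3% of all genes were called and 12% were called lower. In Klf5KO 2 rose and 4 fell, where 66.3% of all genes were called, 55.2% higher and 11.1% lower. In Smad4KO none rose and 6 fell, against 49.6% of all genes called and 17.4% called lower.

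The median log2 fold change of the 8 genes was -0.55 in EgfrKO, -0.20 in Klf5KO and -0.91 in Smad4KO. The median of all genes was not 0 in these comparisons but 0.14, 0.31 and 0.10, and a change is given relative to it where the shift matters. After median-of-ratios scaling, which removes that shift, 6 fell and none rose in EgfrKO, 5 fell and 1 rose in Klf5KO, and 6 fell and none rose in Smad4KO. Of all 13662 genes, 3023 were then called lower in EgfrKO, 3732 in Klf5KO and 3441 in Smad4KO, and 2485, 3397 and 3382 higher. Higher calls were 72.2%, 83.2% and 64.9% of all calls as deposited in the 3 comparisons, and 45.1%, 47.7% and 49.6% after that scaling. The groups did not overlap for 6 of the 8 genes in EgfrKO, 6 in Klf5KO and 8 in Smad4KO, against 56%, 69% and 59.1% of all genes.

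**Figure D2:**
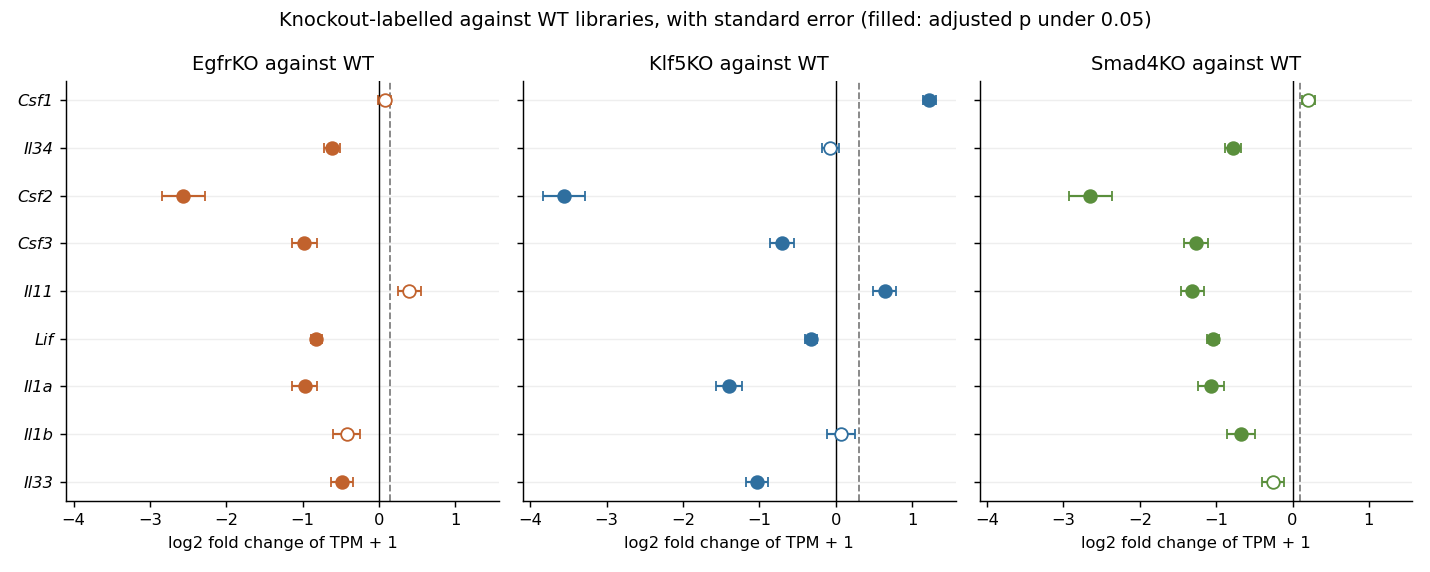
Log2 fold change of TPM + 1 (x axis) with its standard error for the 9 tested cytokine genes, in EgfrKO, Klf5KO and Smad4KO libraries against WT. Filled points have an adjusted p under 0.05 and the dashed line is the median of all 13662 genes. Csf3, which passed the filter only through WT, is shown as a description. Csf2 lies farthest to the left in each panel, and Csf1 lies to the right in Klf5KO.

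Csf2 encodes GM-CSF, a growth and activation factor of granulocytes and macrophages, from a gene of 2397 bases on chromosome 11 (GRCm38, chr11:54247271-54249667, minus strand). It measured 6.07, 6.70 and 6.21 TPM in EgfrKO libraries, 1.61, 3.46 and 3.25 TPM in Klf5KO libraries, 7.67, 4.32 and 6.13 TPM in Smad4KO libraries, and 26.8, 58.9 and 47.8 TPM in WT libraries. Every knockout-labelled library lay below every WT library, and the WT libraries also spread the most. The ratio of mean TPM to WT was 0.142 in EgfrKO, 0.0624 in Klf5KO and 0.136 in Smad4KO. Csf2 fell for all 3 labels, with log2 fold changes of -2.56 in EgfrKO (SE 0.28, limma adjusted p = 3.3e-05), -3.56 in Klf5KO (SE 0.28, adjusted p = 1.5e-06) and -2.65 in Smad4KO (SE 0.28, adjusted p = 1.3e-05). Ranked from the largest decrease among 13662 genes, it was number 11 in EgfrKO, number 8 in Klf5KO and number 15 in Smad4KO.

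Csf1 encodes the main growth factor of macrophages and lies at chr3:107741048-107760469 on the minus strand. Its values were 7.77, 6.87 and 7.51 TPM in EgfrKO, 16.5, 17.8 and 18.5 TPM in Klf5KO, 9.02, 8.26 and 7.29 TPM in Smad4KO, and 6.89, 6.98 and 6.97 TPM in WT. All Klf5KO libraries were above all others, and the remaining groups lay close together. Csf1 rose by 1.23 on the log2 scale in Klf5KO (SE 0.09, adjusted p = 6.3e-07), and by 0.92 relative to the median gene. The log2 difference was 0.08 in EgfrKO (adjusted p = 0.504), with the sign turned after scaling, and 0.20 in Smad4KO (adjusted p = 0.0663). In Smad4KO the groups did not overlap, and without Smad4KO library 3 the adjusted p was 0.0228.

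Il34, whose product is the second ligand of the CSF-1 receptor, lies at chr8:110741829-110805924 on the minus strand. It had 20.8, 21.3 and 16.2 TPM in EgfrKO, 28.3, 26.6 and 30.8 TPM in Klf5KO, 19.0, 16.3 and 15.98 TPM in Smad4KO, and 32.8, 29.1 and 28.2 TPM in WT. EgfrKO and Smad4KO values were all below WT values, whereas Klf5KO and WT values overlapped. Il34 fell by 0.61 on the log2 scale in EgfrKO (SE 0.11, adjusted p = 0.00091) and by 0.78 in Smad4KO (SE 0.11, adjusted p = 9.7e-05). In Klf5KO the log2 difference was -0.07 (adjusted p = 0.577), which is -0.38 relative to the median gene, and after median-of-ratios scaling it was -0.41 with an adjusted p of 0.0037. Of the 2 ligands of the CSF-1 receptor, Il34 was thus the more abundant transcript in every group mean, at 17.1 to 30.1 TPM against 6.95 to 17.6 TPM for Csf1.

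Csf3, which encodes the neutrophil growth factor G-CSF (chr11:98701263-98703629, plus strand), was near the bottom of the measured range. It was listed at 0.28, 0.05 and 0.42 TPM in EgfrKO, 0.63, 0.52 and 0.38 TPM in Klf5KO, 0, 0.06 and 0 TPM in Smad4KO, and 1.25, 1.24 and 1.90 TPM in WT. Only the WT libraries exceeded 1 TPM. As a description, with no test because the filter bears on them, the log2 differences from WT were -0.98 in EgfrKO, -0.70 in Klf5KO and -1.26 in Smad4KO, and with a pseudocount of 0.1 in place of 1 they were -2.30, -1.36 and -3.72. Read depth cannot be recovered from TPM, so no counting error stands behind these low values.

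The bases upstream of Csf1 and Csf2 are shown because these 2 colony-stimulating factors moved in opposite directions in Klf5KO. Each line gives 250 bases before a RefSeq transcription start (GRCm38.p6), 5′ to 3′ on the gene's strand, and capitals mark matches to the motifs named below.
Csf1, chr3:107760470-107760719, minus strand: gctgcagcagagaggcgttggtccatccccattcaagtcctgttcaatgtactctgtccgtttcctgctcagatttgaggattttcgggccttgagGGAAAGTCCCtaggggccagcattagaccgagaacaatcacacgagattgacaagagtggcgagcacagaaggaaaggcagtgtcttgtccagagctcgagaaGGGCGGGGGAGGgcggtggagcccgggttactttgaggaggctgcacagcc
Csf2, chr11:54249900-54250149, minus strand: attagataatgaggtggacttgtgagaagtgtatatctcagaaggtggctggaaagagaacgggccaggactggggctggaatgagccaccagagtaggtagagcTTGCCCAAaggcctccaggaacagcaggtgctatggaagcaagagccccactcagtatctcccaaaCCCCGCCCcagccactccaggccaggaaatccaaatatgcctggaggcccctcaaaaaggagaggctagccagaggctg
Searched on both strands were an NF-kappaB motif, an AP-1 motif (TGANTCA), a STAT motif (TTCNNNGAA), a C/EBP motif (TTGCNNAA), a KLF motif (CCNCNCCC) and a TATA box (TATAAA), and KLF matches can overlap each other. Upstream of Csf1 lie an NF-kappaB match 154 to 145 bases before the start, and 2 overlapping KLF matches 51 to 40 bases before it. Upstream of Csf2 lie a C/EBP match 145 to 138 bases before the start and a KLF match 79 to 72 bases before it. This RefSeq start of Csf2 is base 54249899, whereas the GENCODE gene begins at 54249667 on the minus strand. The bases between these 2 positions were not searched, so motifs missing from the window may still lie next to the GENCODE start. Among 32851 RefSeq promoters of this length, 1.41% held the NF-kappaB motif, 6.75% AP-1, 7.02% STAT, 9.56% C/EBP, 45.9% KLF and 12.4% a TATA box. Of the 8 cytokine genes with a RefSeq promoter in the table used, which has none for Csf3 and Il34, 2, 4, 0, 3, 6 and 3 held these motifs in the same order. Here a gene is counted if any of its starts holds the motif, whereas the percentages are shares of single promoters. Il11 and Il33 have 2 starts each, and the matches of Il11 all lie before its second start. A match describes letters in this window and is not evidence of binding.

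In the interleukin-6 family, Lif encodes leukaemia inhibitory factor, which signals through gp130 and Lifr and lies at chr11:4257557-4272514 on the plus strand. Its values were 10.8, 10.2 and 10.3 TPM in EgfrKO, 14.6, 15.1 and 15.8 TPM in Klf5KO, 8.28, 9.28 and 8.88 TPM in Smad4KO, and 17.3, 20.6 and 19.8 TPM in WT. The 4 groups did not overlap and stood in the order Smad4KO, EgfrKO, Klf5KO and WT from lowest to highest. Lif fell by 0.82 on the log2 scale in EgfrKO (SE 0.08, adjusted p = 1.1e-05), by 0.32 in Klf5KO (SE 0.08, adjusted p = 0.0031) and by 1.04 in Smad4KO (SE 0.08, adjusted p = 7.3e-07). After median-of-ratios scaling the Klf5KO difference was -0.65.

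Il11 encodes a gp130 cytokine that is known as a target of TGF-beta signalling, and lies at chr7:4772373-4782859 on the minus strand. It measured 6.60, 5.54 and 5.82 TPM in EgfrKO, 6.08, 7.37 and 8.49 TPM in Klf5KO, 0.90, 1.37 and 1.15 TPM in Smad4KO, and 3.64, 5.44 and 3.96 TPM in WT. Smad4KO libraries were below all others, and EgfrKO and Klf5KO libraries were above all WT libraries. Il11 fell by 1.31 on the log2 scale in Smad4KO (SE 0.15, adjusted p = 2.5e-05), with a ratio of mean TPM of 0.262. It rose by 0.64 in Klf5KO (SE 0.15, adjusted p = 0.0028), a call that was lost after median-of-ratios scaling (0.34, adjusted p = 0.0792) and after quantile normalization (0.29, adjusted p = 0.137). In EgfrKO the log2 difference was 0.40 with an adjusted p of 0.0513, and it passed the threshold without WT library 2 (0.54, adjusted p = 0.0161), without Klf5KO library 1 (adjusted p = 0.0401) or without Klf5KO library 3 (adjusted p = 0.0486).

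Il6, the founding member of the family at chr5:30013114-30019981 on the plus strand, stayed below the filter. Its values were 0.52, 0.39 and 0.36 TPM in EgfrKO, 0.26, 0.07 and 0.07 TPM in Klf5KO, 0.16, 0 and 0.08 TPM in Smad4KO, and 0.61, 0.85 and 1.62 TPM in WT. The WT values exceeded those of all knockout-labelled libraries. An exact permutation test of the difference in mean TPM gave p = 0.1 for each label against WT, two-sided, which is the smallest value that 3 libraries against 3 allow. With no filter on low values, limma gave log2 differences of -0.48 in EgfrKO (adjusted p = 0.0388), -0.81 in Klf5KO (adjusted p = 0.0014) and -0.88 in Smad4KO (adjusted p = 0.0012).

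The second RefSeq start of Il11 is shown for the cytokine gene with the largest difference between Smad4KO and the other knockout labels, again as 250 bases upstream with motif matches in capitals.
Il11, chr7:4778142-4778391, minus strand: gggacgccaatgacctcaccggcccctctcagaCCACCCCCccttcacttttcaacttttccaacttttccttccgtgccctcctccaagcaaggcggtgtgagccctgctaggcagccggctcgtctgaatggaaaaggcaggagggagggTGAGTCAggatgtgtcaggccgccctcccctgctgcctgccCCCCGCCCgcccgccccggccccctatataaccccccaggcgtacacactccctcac
It holds an AP-1 match 98 to 92 bases before the start and KLF matches 217 to 210 and 57 to 50 bases before it, with no match to the STAT motif in this window. Binding by Smad proteins was not searched for.

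Of the interleukin-1 family, Il33 encodes a nuclear alarmin of epithelial and stromal cells and lies at chr19:29925114-29960718 on the plus strand. It measured 54.9, 51.4 and 53.4 TPM in EgfrKO, 36.4, 27.6 and 46.1 TPM in Klf5KO, 62.0, 66.2 and 59.2 TPM in Smad4KO, and 68.5, 71.4 and 85.2 TPM in WT. The 4 groups did not overlap, with Klf5KO lowest and WT highest. Il33 fell by 1.04 on the log2 scale in Klf5KO (SE 0.14, adjusted p = 7.4e-05) and by 0.48 in EgfrKO (SE 0.14, adjusted p = 0.0188). The EgfrKO call was lost without WT library 3 (adjusted p = 0.0783) or without EgfrKO library 2 (adjusted p = 0.0570). In Smad4KO the log2 difference was -0.26 (adjusted p = 0.164), and it passed the threshold without Klf5KO library 2 (SE 0.10 in place of 0.14, adjusted p = 0.0489).

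Il1a and Il1b are neighbours on the minus strand of chromosome 2, 54.6 kb apart (chr2:129299610-129309972 and chr2:129364570-129371139). Il1a, which encodes interleukin-1 alpha, had 2.92, 2.69 and 2.80 TPM in EgfrKO, 1.78, 1.83 and 1.86 TPM in Klf5KO, 1.97, 3.55 and 2.36 TPM in Smad4KO, and 5.16, 8.24 and 6.34 TPM in WT. All knockout-labelled values were below all WT values. Il1a fell, with log2 fold changes of -0.98 in EgfrKO (SE 0.17, adjusted p = 0.00086), -1.40 in Klf5KO (SE 0.17, adjusted p = 2.7e-05) and -1.07 in Smad4KO (SE 0.17, adjusted p = 0.00029).

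Il1b, which encodes interleukin-1 beta, had 8.35, 6.08 and 7.75 TPM in EgfrKO, 8.79, 11.6 and 12.02 TPM in Klf5KO, 5.67, 5.92 and 6.49 TPM in Smad4KO, and 10.5, 13.4 and 7.47 TPM in WT. The EgfrKO and Klf5KO values overlapped those of WT, and the Smad4KO values lay below them. Il1b fell by 0.67 on the log2 scale in Smad4KO (SE 0.18, adjusted p = 0.0094). In EgfrKO the log2 difference was -0.42 (adjusted p = 0.0793), and it passed the threshold without WT library 3 (-0.63, adjusted p = 0.0131) and after median-of-ratios scaling (-0.56, adjusted p = 0.0339). In Klf5KO it was 0.07 (adjusted p = 0.762), and its sign turned under both scalings, without WT library 3 and without Klf5KO library 3. Leukocytes are a known source of interleukin-1 beta. The summed macrophage and monocyte markers were 411 to 1056 TPM in Smad4KO and 902 to 1659 TPM in WT libraries, and their part in the Il1b difference was not tested.

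The 250 bases upstream of both genes are shown because Il1a fell for all 3 labels and its neighbour Il1b in Smad4KO alone passed the threshold, with motif matches in capitals as above.
Il1a, chr2:129309973-129310222, minus strand: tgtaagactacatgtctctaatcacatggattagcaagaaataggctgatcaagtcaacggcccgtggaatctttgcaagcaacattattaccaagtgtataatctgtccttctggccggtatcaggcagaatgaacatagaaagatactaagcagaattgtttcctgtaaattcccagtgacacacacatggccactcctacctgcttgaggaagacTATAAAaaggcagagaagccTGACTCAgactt
Il1b, chr2:129371140-129371389, minus strand: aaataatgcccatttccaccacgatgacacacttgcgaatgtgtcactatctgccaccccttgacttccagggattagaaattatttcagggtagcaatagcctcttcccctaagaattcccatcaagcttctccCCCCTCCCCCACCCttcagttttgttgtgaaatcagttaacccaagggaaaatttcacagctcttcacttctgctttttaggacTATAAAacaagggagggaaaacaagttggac
Both hold a TATA box close to the start, 32 to 27 bases before it for Il1a and 31 to 26 bases before it for Il1b. Il1a also holds an AP-1 match 12 to 6 bases before the start, and Il1b holds 3 overlapping KLF matches 115 to 102 bases before it.

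Differences between the knockout labels were tested in the same fit, and each of these comparisons is also the test of whether 2 labels differ from WT by unequal amounts. Higher calls were 26.6% of all calls in EgfrKO against Klf5KO and 71.2% in Klf5KO against Smad4KO as deposited, and 50.8% and 49.1% after median-of-ratios scaling. EgfrKO differed from Klf5KO in 7 of 9 tested genes, where 55.2% of all genes were called, 14.7% higher and 40.5% lower. Csf2, Il33 and Il1a were higher in EgfrKO and Csf1, Il34, Lif and Il1b were lower there. Csf2 averaged 6.33 ± 0.33 TPM in EgfrKO and 2.77 ± 1.01 TPM in Klf5KO (SD, n = 3 each), a log2 fold change of 0.995 (SE 0.28, adjusted p = 0.0101). Csf1 averaged 7.38 ± 0.46 TPM in EgfrKO and 17.6 ± 1.02 TPM in Klf5KO, a log2 fold change of -1.15 (SE 0.09, adjusted p = 1.3e-06). Il33 was higher by 0.55 in EgfrKO (SE 0.14, adjusted p = 0.0065), and by 0.37 without Klf5KO library 2.

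The calls of the Il1 genes between EgfrKO and Klf5KO were close to the threshold. Il1a was higher by 0.43 in EgfrKO with an adjusted p of 0.0496, and the call was lost without any single EgfrKO or Klf5KO library, without WT library 3 and without Smad4KO library 3, with adjusted p between 0.0598 and 0.110. Il1b was lower by 0.49 in EgfrKO, written as a log2 fold change of -0.49 with an adjusted p of 0.0378. That call was lost without EgfrKO library 2 or 3 and without Klf5KO library 2 or 3, with adjusted p between 0.0614 and 0.140. It was also lost after median-of-ratios scaling (-0.31, adjusted p = 0.196).

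EgfrKO and Smad4KO differed in 2 of 9 genes, both higher, where 33.2% of all genes were called and 18.7% were called higher and 14.5% lower. Il11 averaged 5.99 ± 0.55 TPM in EgfrKO and 1.14 ± 0.24 TPM in Smad4KO (SD, n = 3 each), a log2 fold change of 1.71 (SE 0.15, adjusted p = 8.2e-06). Lif was higher by 0.22 in EgfrKO with an adjusted p of 0.0433. Lif missed the threshold without WT library 3, without any single EgfrKO library, without Klf5KO library 2 or 3 and without Smad4KO library 1 or 3, with adjusted p between 0.0529 and 0.147. Csf2 averaged 6.33 ± 0.33 TPM in EgfrKO and 6.04 ± 1.67 TPM in Smad4KO, a log2 fold change of 0.08 (SE 0.28, adjusted p = 0.844).

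Klf5KO differed from Smad4KO in 8 of 9 genes, where 63.8% of all genes were called, 45.5% higher and 18.3% lower. Csf1, Il34, Csf3, Il11, Lif and Il1b were higher in Klf5KO, and Csf2 and Il33 were lower. Csf3, which is counted in the comparisons between labels, passed the filter only through WT and averaged 0.51 TPM in Klf5KO and 0.02 TPM in Smad4KO. With Csf3 left out, 5 of 8 genes were higher in Klf5KO and 2 were lower. The largest log2 fold change was that of Il11, at 1.95 (SE 0.15, adjusted p = 6e-07), followed by Csf1 at 1.02 (SE 0.09, adjusted p = 1.1e-06). Il33 averaged 36.7 ± 9.27 TPM in Klf5KO and 62.5 ± 3.52 TPM in Smad4KO, a log2 fold change of -0.78 (SE 0.14, adjusted p = 0.00055). Csf2 averaged 2.77 ± 1.01 TPM in Klf5KO and 6.04 ± 1.67 TPM in Smad4KO, a log2 fold change of -0.91 (adjusted p = 0.0136), and missed the threshold without Klf5KO library 1 (adjusted p = 0.0615) or without Smad4KO library 1 (adjusted p = 0.0565).

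**Figure D3:**
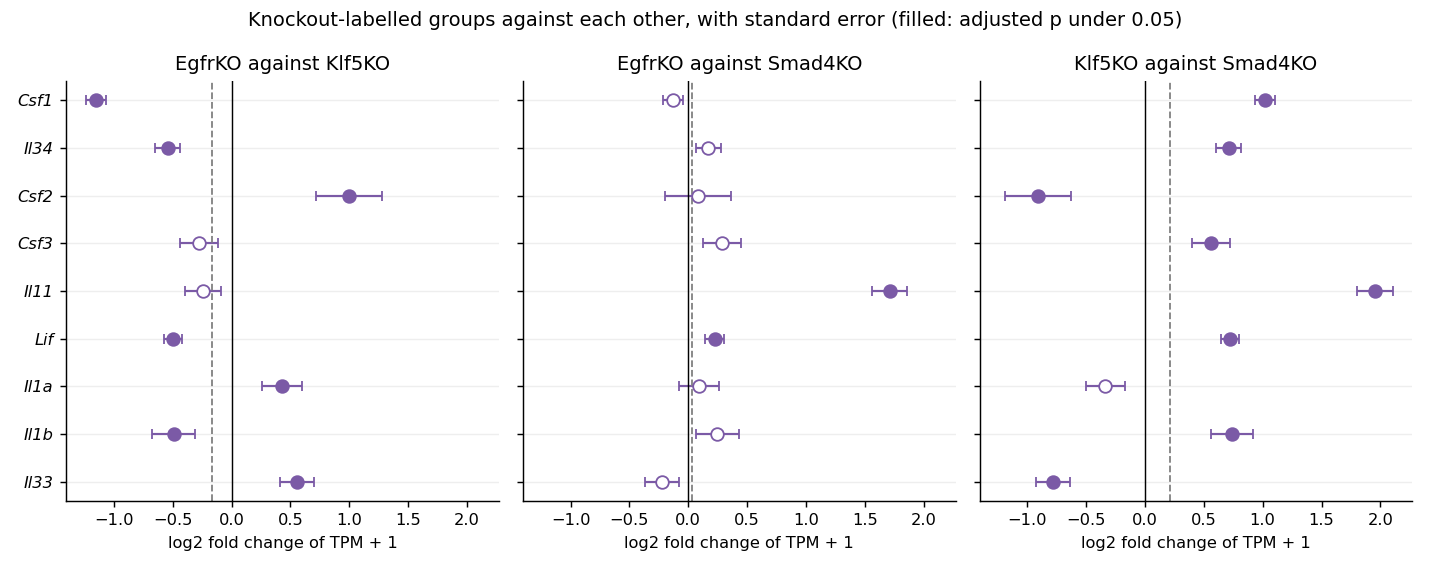
Log2 fold change of TPM + 1 (x axis) with its standard error for the 9 tested cytokine genes between knockout labels, the first-named label over the second. Filled points have an adjusted p under 0.05 and the dashed line is the median of all genes. Il11 lies far to the right against Smad4KO, and only 2 points are filled in the comparison of EgfrKO with Smad4KO.

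The receptors of these ligands were measured in the same libraries. The counts of each pathway list stand beside all genes tested, of which 31.3% were called higher and 12% lower in EgfrKO, 55.2% higher and 11.1% lower in Klf5KO, and 32.2% higher and 17.4% lower in Smad4KO. Counts after median-of-ratios scaling stand beside 2485 of 13662 genes higher and 3023 lower in EgfrKO. In Klf5KO these were 3397 and 3732, and in Smad4KO 3382 and 3441. Csf1r, the shared receptor of CSF-1 and interleukin-34 and a macrophage gene, averaged 43.4 ± 1.68 TPM in EgfrKO, 40.2 ± 5.42 TPM in Klf5KO, 22.0 ± 14.4 TPM in Smad4KO and 27.9 ± 10.8 TPM in WT (SD, n = 3 each). It was not called against WT for any label, with log2 differences of 0.68, 0.56 and -0.59 and adjusted p of 0.285, 0.330 and 0.347. Without Smad4KO library 2, which had 5.40 TPM, the adjusted p was 0.0170 in EgfrKO and 0.0257 in Klf5KO, and the difference in Smad4KO was 0.18. Csf2ra, the GM-CSF receptor alpha chain, averaged 22.8 ± 2.35, 29.0 ± 4.87 and 28.1 ± 4.06 TPM in EgfrKO, Klf5KO and Smad4KO and 26.2 ± 3.47 TPM in WT, and was called for none. Among all 5 receptors of colony-stimulating factors, 1 rose in EgfrKO, 2 rose in Klf5KO and 1 fell in Smad4KO, and after median-of-ratios scaling none was called in EgfrKO. The common beta chain Csf2rb averaged 4.54 TPM in EgfrKO, 6.19 TPM in Klf5KO, 1.86 TPM in Smad4KO and 2.97 TPM in WT. It rose in Klf5KO (0.86, SE 0.18, adjusted p = 0.0011), whereas its calls in EgfrKO (0.49) and Smad4KO (-0.48) stood at an adjusted p of 0.0405 each. The call in EgfrKO was lost without WT library 1 or 3 or any single EgfrKO library, with adjusted p between 0.0639 and 0.137. The call in Smad4KO was lost without WT library 1 or 2, EgfrKO library 2 or 3, or Smad4KO library 1 or 2, with adjusted p between 0.0509 and 0.163.

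Of the 6 interleukin-6 family receptors, 5 were tested. In EgfrKO 2 rose, in Klf5KO 4 rose, and in Smad4KO 4 rose and 1 fell, with list medians of -0.11, 0.38 and 0.53 on the log2 scale beside the all-gene medians of 0.14, 0.31 and 0.10. After median-of-ratios scaling 1 rose and 2 fell in EgfrKO, 1 rose and 1 fell in Klf5KO, and 4 rose and 1 fell in Smad4KO. Il6st, the gp130 chain through which interleukin-6, interleukin-11 and LIF all signal, averaged 24.5 ± 0.78 TPM in EgfrKO, 64.2 ± 7.85 TPM in Klf5KO, 41.5 ± 5.04 TPM in Smad4KO and 28.4 ± 2.31 TPM in WT. It rose by 1.15 in Klf5KO (SE 0.10, adjusted p = 3.4e-06) and by 0.53 in Smad4KO (SE 0.10, adjusted p = 0.0012). In EgfrKO the difference was -0.20 (adjusted p = 0.134), and after median-of-ratios scaling -0.35 with an adjusted p of 0.0074. Osmr, the oncostatin M receptor, rose by 0.96 in Smad4KO (adjusted p = 2.2e-05), to 20.6 ± 1.91 TPM against 10.1 ± 1.45 TPM in WT. Il11ra1, the interleukin-11 receptor alpha chain, averaged 23.6 TPM in EgfrKO, 18.4 TPM in Klf5KO, 18.4 TPM in Smad4KO and 14.6 TPM in WT and was called higher for all 3 labels (0.66, 0.31 and 0.31), but in Klf5KO its sign turned after scaling (-0.024).

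Of 6 other genes listed with the ligands of the family, 5 were tested. By limma none was called in EgfrKO, where 3 fell after median-of-ratios scaling, 2 fell in Klf5KO, and 1 rose and 3 fell in Smad4KO. Clcf1, which encodes cardiotrophin-like cytokine factor 1, was more abundant than every one of the 10 members, at 114 ± 17.7 TPM in EgfrKO, 111 ± 9.10 TPM in Klf5KO, 92.6 ± 6.01 TPM in Smad4KO and 130 ± 2.71 TPM in WT. It fell in Smad4KO (-0.48, SE 0.10, adjusted p = 0.0019). Ctf1, cardiotrophin-1, rose in Smad4KO (0.82, adjusted p = 0.0023) and fell in Klf5KO (-0.94, adjusted p = 0.00061).

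Among 21 genes of JAK-STAT3 signalling and its known targets, 16 were tested. In EgfrKO 5 rose and 7 fell, in Klf5KO 7 rose and 5 fell, and in Smad4KO 4 rose and 5 fell. The list medians were -0.12, 0.08 and -0.0019, beside 0.14, 0.31 and 0.10 for all genes. After median-of-ratios scaling they were -0.27, -0.26 and -0.11. With that scaling 1 was higher and 9 lower in EgfrKO, 3 higher and 10 lower in Klf5KO, and 3 higher and 5 lower in Smad4KO. Of all 13662 genes, 2485, 3397 and 3382 were then called higher, and 3023, 3732 and 3441 lower. Socs1 and Socs3, feedback inhibitors of cytokine receptors, moved in opposite directions in Klf5KO and Smad4KO. Socs1 averaged 40.4 ± 1.07 TPM in EgfrKO, 30.0 ± 7.84 TPM in Klf5KO, 33.8 ± 2.55 TPM in Smad4KO and 10.8 ± 0.37 TPM in WT. It rose by 1.82, 1.36 and 1.56 on the log2 scale, with adjusted p of 4.3e-06, 1.4e-05 and 5.9e-06. Socs3 averaged 111 ± 3.72 TPM in EgfrKO, 78.8 ± 1.93 TPM in Klf5KO, 96.8 ± 2.22 TPM in Smad4KO and 121 ± 3.18 TPM in WT. It fell by 0.61 in Klf5KO (adjusted p = 6.6e-07) and by 0.32 in Smad4KO (adjusted p = 8.1e-05), and its smaller difference in EgfrKO (-0.13, adjusted p = 0.0320) was not called without WT library 1 or 3 or without EgfrKO library 2 or 3. Pim1, a kinase gene induced by STAT3, fell by 0.59, 0.68 and 0.99 in EgfrKO, Klf5KO and Smad4KO, with means of 70.9, 66.7 and 53.4 TPM against 108 TPM in WT. Tyk2, Tnfrsf1a and Mcl1 were called higher for all 3 labels, but after median-of-ratios scaling none of them was called higher in EgfrKO or Klf5KO, and in Klf5KO Tnfrsf1a (-0.17, adjusted p = 0.0063) and Mcl1 (-0.21, adjusted p = 0.00056) were called lower. Mcl1 then missed the threshold in Smad4KO as well (0.091, adjusted p = 0.0526).

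On the interleukin-1 side, 9 genes of receptors and antagonists were tested, of which 3 rose in EgfrKO, 6 rose and 1 fell in Klf5KO, and 2 rose and 2 fell in Smad4KO. Over all genes 31.3%, 55.2% and 32.2% were called higher, and the counts of the list are near these shares in EgfrKO and Klf5KO. After median-of-ratios scaling 2 rose and 1 fell in EgfrKO, 3 rose and 2 fell in Klf5KO, and the counts in Smad4KO were as before. Il18bp, a secreted antagonist of interleukin-18, averaged 18.2 ± 0.65 TPM in EgfrKO, 24.0 ± 2.69 TPM in Klf5KO, 16.8 ± 1.51 TPM in Smad4KO and 5.25 ± 1.63 TPM in WT. It rose by 1.66, 2.03 and 1.55 on the log2 scale, with adjusted p of 1.6e-05, 1.7e-06 and 1.3e-05. Il1rn, the interleukin-1 receptor antagonist, averaged 18.7 ± 0.57 TPM in EgfrKO, 15.2 ± 2.82 TPM in Klf5KO, 17.6 ± 1.14 TPM in Smad4KO and 21.8 ± 5.92 TPM in WT. It fell in Klf5KO (-0.48, adjusted p = 0.0206), but the groups overlapped and the call was lost without WT library 2 (-0.28, adjusted p = 0.0824) or Klf5KO library 1 (adjusted p = 0.0881). Sigirr, an inhibitory receptor of the family, rose in EgfrKO (0.50, adjusted p = 9.1e-05) and fell in Smad4KO (-0.30, adjusted p = 0.0020). Its rise in Klf5KO (0.43) was 0.08 after median-of-ratios scaling, with an adjusted p of 0.259. Of the other ligands, Il18 was the only tested one and rose in EgfrKO (0.57, adjusted p = 0.0117).

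Of 12 genes that process or release interleukin-1, 10 were tested, and 5 rose in EgfrKO, 7 rose and 1 fell in Klf5KO, and 5 rose and 1 fell in Smad4KO. Over all genes 31.3%, 55.2% and 32.2% were called higher. The list medians were 0.15, 0.32 and 0.21 beside 0.14, 0.31 and 0.10 for all genes, so that in EgfrKO and Klf5KO they are close to the median gene, and after median-of-ratios scaling 0.020, -0.028 and 0.10, with 4 higher and 1 lower in EgfrKO, 3 higher and 1 lower in Klf5KO, and 4 higher and 4 lower in Smad4KO. The inflammasome protease gene Casp1 averaged 45.4 ± 5.0 TPM in EgfrKO, 43.7 ± 3.6 TPM in Klf5KO, 42.2 ± 2.94 TPM in Smad4KO and 8.90 ± 1.17 TPM in WT. It rose by 2.23, 2.18 and 2.13 on the log2 scale (SE 0.11 each), with adjusted p of 1.9e-07, 6.5e-08 and 4.4e-08. Casp4, the caspase of the noncanonical inflammasome, rose by 1.37, 1.33 and 1.64, with means of 19.6, 19.1 and 23.8 TPM against 7.0 TPM in WT. Aim2, a DNA sensor, rose by 0.88 in EgfrKO and 1.61 in Klf5KO, and its difference in Smad4KO (0.27, adjusted p = 0.0242) was not called after scaling or without Smad4KO library 1 or 3 or WT library 1. Gsdmd, whose cleaved product forms the pore for release, rose by 0.77 in EgfrKO and 0.96 in Smad4KO, and by 0.36 in Klf5KO, where the difference was 0.0090 after median-of-ratios scaling. Capn1 and Capn2 were called only in Klf5KO, where both rose, and these calls were lost after that scaling. After it, Capn2 fell in EgfrKO (-0.23, adjusted p = 0.0026) and Smad4KO (-0.21, adjusted p = 0.0035), and Capn1 fell in Smad4KO (-0.21, adjusted p = 0.0033).

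Among 9 genes of interleukin-1 signalling, 2 rose in EgfrKO, 6 rose in Klf5KO, and 5 rose and 1 fell in Smad4KO, where 31.3%, 55.2% and 32.2% of all genes were called higher. After median-of-ratios scaling 1 rose and 2 fell in EgfrKO, 2 rose and 3 fell in Klf5KO, and 4 rose and 1 fell in Smad4KO. Irak3, a kinase-like inhibitor of the pathway, rose for all 3 labels, by 0.90, 1.25 and 0.92, with means of 7.34, 9.63 and 7.55 TPM against 3.51 TPM in WT. The adaptor gene Myd88 rose by 0.54 in Smad4KO (adjusted p = 2.2e-05), to 40.4 ± 2.40 TPM against 27.5 ± 0.70 TPM in WT. Its calls in EgfrKO (0.31) and Klf5KO (0.19) were not made after median-of-ratios scaling, where the differences were 0.16 and -0.15. The calls of Irak1 and Tab2 in Klf5KO (0.42 and 0.48) were also lost after that scaling (0.07 and 0.14).

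**Figure D4:**
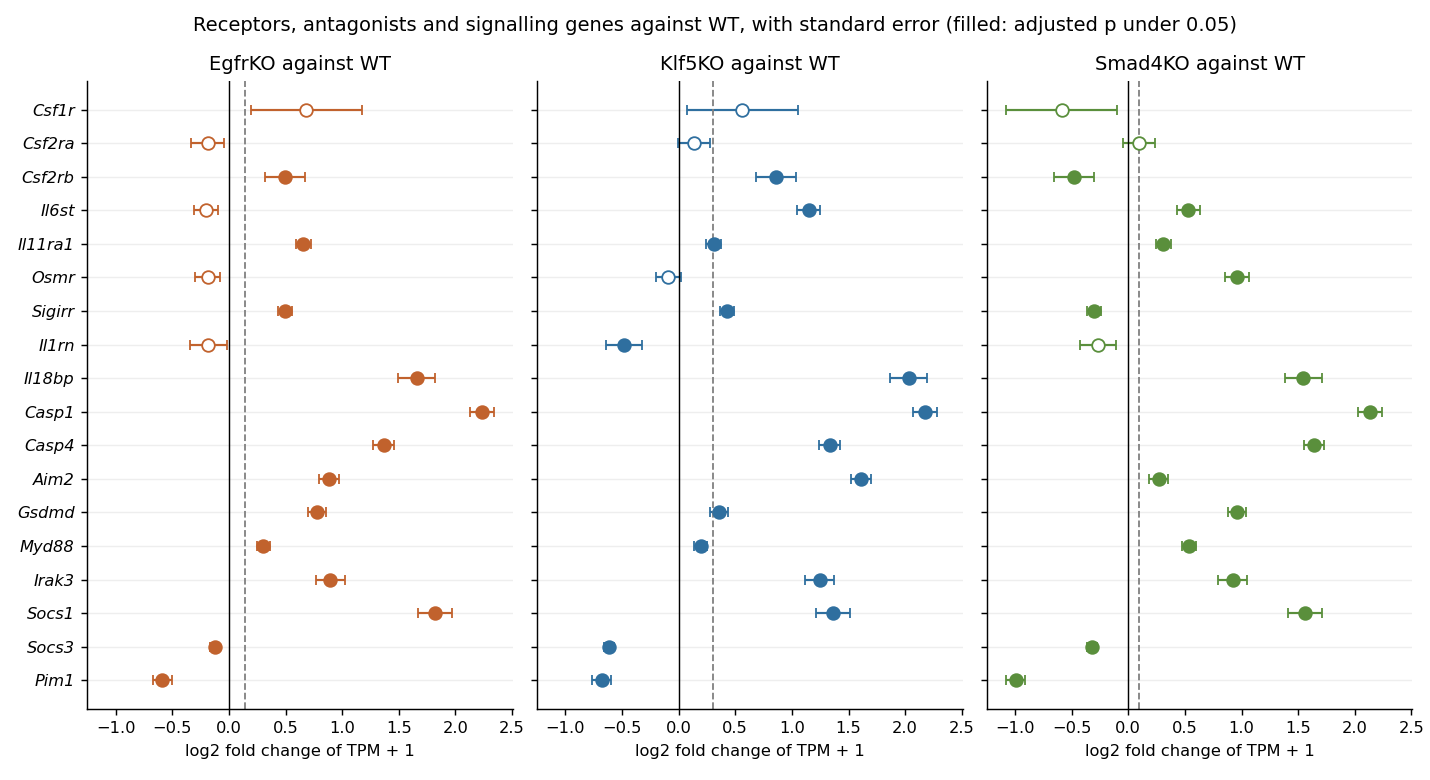
Log2 fold change of TPM + 1 (x axis) with its standard error for 18 receptor, antagonist, processing and signalling genes in EgfrKO, Klf5KO and Smad4KO libraries against WT. Filled points have an adjusted p under 0.05 and the dashed line is the median of all genes. Casp1 lies beyond 2 in each panel, and Socs1 and Socs3 lie on opposite sides of 0.

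Other cell types and handling were measured beside the cytokines. The summed fibroblast markers were 156 to 167 TPM in EgfrKO, 361 to 746 TPM in Klf5KO, 65.0 to 95.9 TPM in Smad4KO and 65.7 to 162 TPM in WT. Of 12 tested markers, 11 rose in Klf5KO, 3 rose and 1 fell in EgfrKO, and none rose and 3 fell in Smad4KO. All genes were called higher at 55.2% in Klf5KO and 31.3% in EgfrKO, and lower at 12% in EgfrKO and 17.4% in Smad4KO. Csf1 rose in Klf5KO, whereas Il6st rose in both Klf5KO and Smad4KO. After median-of-ratios scaling and after quantile normalization 7 of the 12 markers were called higher in Klf5KO, beside 3397 and 3685 of 13662 genes. Fibroblast Col1a1 averaged 164 ± 67.0 TPM in Klf5KO and 29.2 ± 12.1 TPM in WT. The part of fibroblasts in the Csf1 and Il6st differences was not tested.

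Macrophage and monocyte markers summed to 1396 to 1504 TPM in EgfrKO, 1208 to 1853 TPM in Klf5KO, 411 to 1056 TPM in Smad4KO and 902 to 1659 TPM in WT. Of 14 tested markers, 1 fell in EgfrKO, 2 rose in Klf5KO, and 1 rose and 3 fell in Smad4KO. The list medians were 0.58, 0.53 and -0.63 on the log2 scale, beside 0.14, 0.31 and 0.10 for all genes. Summed over 9 general leukocyte genes, levels were 328 to 340 TPM in EgfrKO, 303 to 472 TPM in Klf5KO, 81.3 to 194 TPM in Smad4KO and 194 to 290 TPM in WT. Of the 9, 4 rose and 1 fell in EgfrKO, 7 rose in Klf5KO and 2 fell in Smad4KO. By comparison, 31.3%, 55.2% and 32.2% of all genes were called higher in EgfrKO, Klf5KO and Smad4KO, and 12%, 11.1% and 17.4% lower. After median-of-ratios scaling 1 general leukocyte gene rose and 1 fell in EgfrKO, 1 rose in Klf5KO and 2 fell in Smad4KO. Of all 13662 genes, 2485, 3397 and 3382 were then called higher, and 3023, 3732 and 3441 lower. The shares as deposited also stand beside the counts of T and NK cell and neutrophil markers. T and NK cell markers were sparse, at 11.01 to 16.01 TPM in EgfrKO, 14.9 to 22.9 TPM in Klf5KO, 9.26 to 15.4 TPM in Smad4KO and 2.56 to 6.57 TPM in WT. Of 8 tested T and NK cell markers, 5 rose in EgfrKO, 6 in Klf5KO and 4 in Smad4KO, and none fell. Neutrophil markers summed to 16.2 to 20.9 TPM in EgfrKO, 20.0 to 24.4 TPM in Klf5KO, 18.0 to 20.8 TPM in Smad4KO and 13.7 to 26.0 TPM in WT. Of 12 listed genes 6 were tested, of which 1 rose and 2 fell in EgfrKO, 1 rose and 2 fell in Klf5KO, and 2 rose in Smad4KO. Retnlg averaged 5.33 TPM in EgfrKO, 8.05 TPM in Klf5KO, 5.56 TPM in Smad4KO and 2.16 TPM in WT, and was called higher for all 3 labels. S100a8 averaged 3.24 TPM in EgfrKO, 3.15 TPM in Klf5KO, 4.38 TPM in Smad4KO and 7.88 TPM in WT. The 6 genes below the filter (Ly6g, Ngp, Camp, Mmp8, Mpo and Elane) averaged at most 1.10 TPM in any group. Csf3r, the G-CSF receptor, averaged 2.55 TPM in EgfrKO, 2.54 TPM in Klf5KO, 2.04 TPM in Smad4KO and 1.61 TPM in WT and was called for no label.

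Genes known to respond to tissue dissociation summed to 2486 to 2669 TPM in EgfrKO, 1625 to 2499 TPM in Klf5KO, 2040 to 2193 TPM in Smad4KO and 3889 to 4930 TPM in WT, with no overlap between WT and any other label. Of 14 such genes, 12 fell in EgfrKO, 14 in Klf5KO and 13 in Smad4KO, where 12%, 11.1% and 17.4% of all genes were called lower. Among the 14 genes, 2 are also in the STAT3 list, namely Junb and Socs3. The means of 7 members were likewise highest in WT, namely Il34, Csf2, Csf3, Il6, Lif, Il1a and Il33. The part of handling in those differences was not tested.

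**Figure D5:**
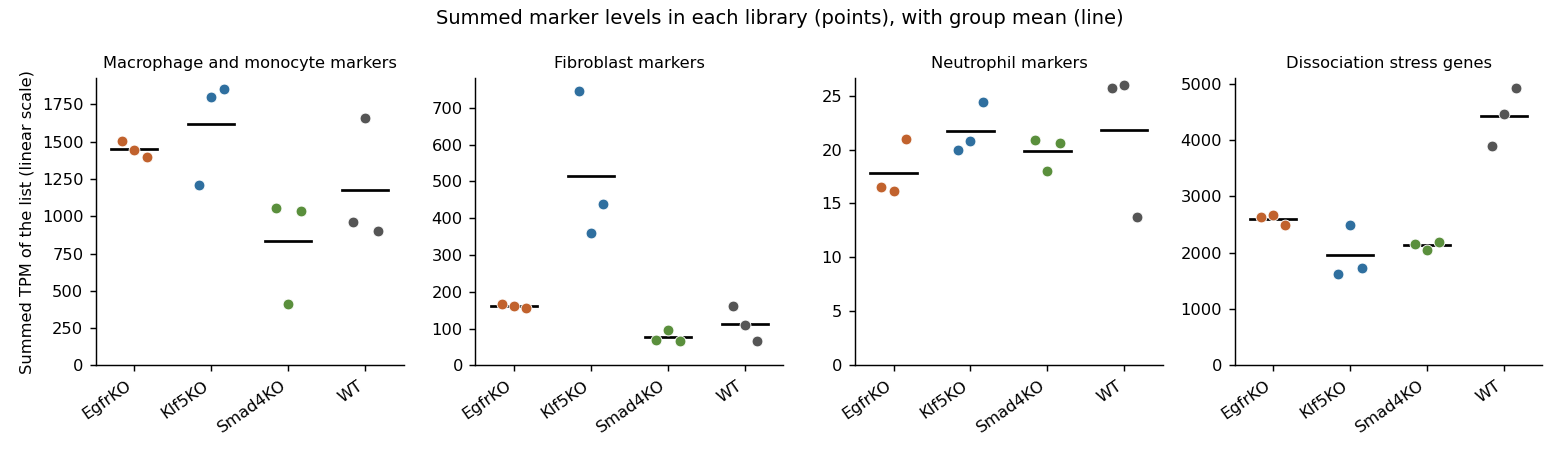
Summed TPM of 4 marker lists on linear axes, with 1 point per library and the mean of each genotype label as a line. Fibroblast markers stand high in Klf5KO, macrophage markers vary within labels, and dissociation stress genes reach 3889 TPM or more only in WT.

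For the 3 most abundant members, the genes whose log2(TPM + 1) ran most alike over the 12 libraries were listed as a description, since the 4 groups set most of each correlation. Csf2 ran closest to Cxcl2, a neutrophil-attracting chemokine (Pearson r = 0.989), followed by Plet1 (0.985) and Csrnp1 (0.976). Cxcl2 averaged 24.7 TPM in EgfrKO, 13.1 TPM in Klf5KO, 18.2 TPM in Smad4KO and 102 TPM in WT. Il34 ran closest to Abcg2, a drug efflux transporter (0.966), Zdhhc21 (0.959) and Ctla2a (0.957). Il33 ran closest to Cdkn1a, a cell cycle inhibitor (0.933), Hspb6 (0.925) and Insig1 (0.924).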

How the data were processed

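RNA of 12 libraries was measured, 3 for each genotype label. TPM per gene is the unit that the authors deposited, in a single table. The submitters' processing notes name Salmon and mm10, without a Salmon version, an annotation or library depths. TPM keeps no read depth, so no counting interval is given and a 0 is only "listed at 0".

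On the log2(TPM + 1) scale, limma 3.58.1 (R 4.3.3) tested the 13662 genes that had at least 1 TPM in at least 3 libraries. The model had 4 genotype means over all libraries, a trend in the spread and 6 contrasts. Tests were two-sided, with Benjamini-Hochberg adjustment over all genes of a contrast. The fitting code was tested on simulated data. Il6, below the filter, was compared by exact permutation tests. Alternatives were another pseudocount, other filters, median-of-ratios scaling, quantile normalization, a spread without trend, a fit of 2 groups, the replicate number as a block, and leaving out each library.

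All 10 members are named. Pathway genes are named by a rule: the 3 most abundant tested genes of each list and those called in 1 direction in all 3 comparisons with WT. One gene that the rule names is not reported here. Of each cell type list the 2 most abundant genes could be named. Other marker genes were named after their values were seen. The members and lists were chosen with earlier results of these data known. Gene positions are from GENCODE on GRCm38, and upstream sequences from RefSeq on GRCm38.p6.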

Additional observations from a re-analysis of the deposited data

How the results depend on the processing

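Of 1056 alternative values for single members, 995 kept their direction and their side of the threshold, 36 lost the call, 17 gained it and 8 changed sign. With Csf3 counted, 6 members were called against WT in EgfrKO, 7 in Klf5KO and 7 in Smad4KO, in place of 5, 6 and 6. With single libraries left out, the number of members called against WT ranged from 5 to 7 in EgfrKO, 6 to 7 in Klf5KO and 6 to 8 in Smad4KO. Between labels it ranged from 5 to 7 in EgfrKO against Klf5KO, 1 to 2 in EgfrKO against Smad4KO and 7 to 8 in Klf5KO against Smad4KO. Csf3 no longer passed the filter in fits without a WT library and was counted in the others. The counts of 6 in Klf5KO and Smad4KO came only from those fits without a WT library. Over all genes, calls with single libraries left out ranged from 4551 to 6139, 8208 to 9095 and 5699 to 6968 against WT. Between labels they ranged from 6592 to 7550, 3474 to 4756 and 7879 to 8714. EgfrKO against Smad4KO gave 1 called member in place of 2 with no filter on low values, after median-of-ratios scaling and after quantile normalization.

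Signs of log2 differences turned as follows. The scalings remove the shift of all genes, and other causes were not tested. Median-of-ratios scaling and quantile normalization gave, in EgfrKO against WT, -0.057 and -0.12 for Csf1, -0.089 and -0.0094 for Capn1 and -0.064 and -0.033 for Irak1. Quantile normalization alone gave -0.045 for Ctf1, and median-of-ratios scaling alone gave -0.015 for Tnfrsf1a and -0.018 for Tab2. In Klf5KO both gave -0.26 and -0.30 for Il1b, -0.21 and -0.20 for Csf2ra, -0.024 and -0.052 for Il11ra1, -0.15 and -0.13 for Myd88 and -0.21 and -0.019 for Mcl1. Median-of-ratios scaling alone gave -0.17 for Tnfrsf1a and -0.081 for Capn2, and quantile normalization alone gave -0.0073 for Il18. In Smad4KO both gave -0.012 and -0.031 for Csf2ra, -0.092 and -0.095 for Irak1 and -0.032 and -0.031 for Tab2.

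Leaving out single libraries gave ranges across 0 of -0.34 to 0.016 for Il1rn in EgfrKO, -0.13 to 0.25 for Il1b and -0.16 to 0.013 for Osmr in Klf5KO, and -0.98 to 0.18 for Csf1r, -0.0015 to 0.22 for Csf2ra and -0.026 to 0.049 for Irak1 in Smad4KO against WT. In EgfrKO against Smad4KO the ranges were -0.10 to 0.25 for Csf2 and -0.040 to 0.27 for Il1a. In Klf5KO against Smad4KO the difference in mean TPM of Il6 ranged from -0.0075 to 0.097.

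Same-numbered libraries of different labels showed little shared deviation, with correlations between -0.149 and 0.116. Such correlations cannot exclude that a replicate number marks a shared animal or batch. With the replicate number as a block, calls over all genes in EgfrKO against WT were 5797 in place of 5920, and Il1b in EgfrKO against Klf5KO had an adjusted p of 0.0592, leaving 6 members called there in place of 7. The Csf2rb calls in EgfrKO and Smad4KO against WT were lost with it (adjusted p = 0.0555 and 0.0554), and Cebpb and Il18 passed in Smad4KO (adjusted p = 0.0396 and 0.0486).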

Other observations

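Mcpt8, a basophil protease gene, stood apart among the cell type markers, with 46.8 ± 2.83 TPM in EgfrKO, 36.9 ± 2.94 TPM in Klf5KO, 16.7 ± 4.12 TPM in Smad4KO and 150 ± 7.25 TPM in WT libraries (SD, n = 3 each). Ms4a2, a receptor gene of basophils and mast cells, averaged at most 0.13 TPM in any of these groups, and Cpa3 averaged 1.88 TPM in EgfrKO, 2.93 TPM in Klf5KO, 0.67 TPM in Smad4KO and 0.12 TPM in WT libraries. The mast cell and basophil list thus summed to 162 to 175 TPM in WT almost entirely through Mcpt8 and Mcpt4. Most called genes of the list did not fall with Mcpt8 in EgfrKO and Klf5KO. Of 6 tested, 4 rose and 1 fell in EgfrKO, 4 rose and 2 fell in Klf5KO, and 2 rose and 2 fell in Smad4KO. Of all genes, 31.3%, 55.2% and 32.2% were called higher and 12%, 11.1% and 17.4% lower.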
